A study of Mus musculus with 4 samples.

Results

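Expression of placental growth factor (PlGF, gene Pgf), of 3 further ligands of the VEGF family (Vegfa, Vegfb and Vegfc), of the receptor gene Flt1, of the co-receptor genes Nrp1 and Nrp2, and of Hif1a, which encodes the oxygen-regulated subunit of a transcription factor, was examined in BMMs under RANKL with and without DI. These 8 genes were found by symbol among 34745 genes in the count table, each as 1 entry, and all 8 passed the filter on low counts that left 12590 genes to test. They were chosen from this same contrast, with their levels under DI and vehicle already known, so their differences are given as a description without a test. BMMs are primary macrophages grown from bone marrow, here of male wild-type C57BL/6 mice aged 8 weeks. They spent 12 h without FBS and then 24 h with RANKL at 100 ng/mL, the cytokine that drives osteoclast formation. The RANKL+DI group also received dimethyl itaconate, a cell-permeable ester of the metabolite itaconate. The RANKL+Veh group received vehicle, which the sample labels name as DMSO. The dose of DI is 20 mM in the sample labels and 20 μM in the methods. Each group held 2 libraries. The methods describe repeats of cell culture work in general as biological and call for more of them than the 2 sequenced here, and neither they nor the labels say of these libraries whether they came from separate cultures or animals. The p-values therefore measure the spread between these libraries, which may be technical. RANKL was present in all 4 libraries, and a group without RANKL was not analysed here.

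PlGF and VEGF-B are secreted ligands of the receptor tyrosine kinase encoded by Flt1, while VEGF-A binds this receptor as well as the one encoded by Kdr. VEGF-C acts mainly on the receptor encoded by Flt4, which drives the growth of lymphatic vessels, and can also bind the product of Kdr. Neuropilins have a short cytoplasmic tail and serve as co-receptors, for VEGF ligands on the one hand and for secreted semaphorins, together with plexins, on the other. Myeloid cells carry the receptor encoded by Flt1 and both neuropilins, and VEGF ligands are known to act on macrophages and on osteoclast precursors. Vegfa is a classical target of the hypoxia-inducible factor, of which Hif1a encodes the regulated subunit.

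The 250 bases before the RefSeq start are shown for the 2 ligand genes that were lower under DI and for the co-receptor gene that was higher, each 5′ to 3′ on the strand of its gene in GRCm38.p6. The Pgf window lies at chr12:85177314-85177563 on the minus strand, the Vegfc window at chr8:54077282-54077531 on the plus strand and the Nrp1 window at chr8:128358823-128359072 on the plus strand. Capitals mark TGACNNNGC, the core of the antioxidant response element, which in Pgf is read on the opposite strand.
Pgf: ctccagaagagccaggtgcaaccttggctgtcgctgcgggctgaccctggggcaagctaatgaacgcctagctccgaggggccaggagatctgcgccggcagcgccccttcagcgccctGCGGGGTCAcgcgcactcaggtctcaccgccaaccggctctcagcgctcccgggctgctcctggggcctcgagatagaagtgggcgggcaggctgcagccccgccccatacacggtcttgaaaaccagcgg
Vegfc: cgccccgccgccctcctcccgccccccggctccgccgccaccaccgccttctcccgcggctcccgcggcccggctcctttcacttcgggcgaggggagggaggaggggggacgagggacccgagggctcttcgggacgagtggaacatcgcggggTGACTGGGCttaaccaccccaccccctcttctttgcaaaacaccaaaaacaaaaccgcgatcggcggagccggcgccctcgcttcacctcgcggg
Nrp1: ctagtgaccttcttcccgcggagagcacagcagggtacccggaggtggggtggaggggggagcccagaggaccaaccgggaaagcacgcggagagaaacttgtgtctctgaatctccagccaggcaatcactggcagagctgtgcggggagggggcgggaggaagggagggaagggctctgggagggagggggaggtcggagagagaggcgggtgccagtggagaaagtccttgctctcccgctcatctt
RefSeq held a promoter entry for 8 of the 8 genes and 10 windows in all, since Pgf and Vegfa have a second start. In the GENCODE M21 annotation Pgf starts further upstream, at 85177790, as do Nrp1 at 128358604 and Hif1a at 73901375. The Pgf and Nrp1 windows shown and the Hif1a window thus lie inside the genes as annotated there. So do the windows of the second Pgf start and of the second Vegfa start. Each window was searched on both strands for 3 motifs: TGACNNNGC, the hypoxia response element core ACGTG, and the AP-1 site TGANTCA. The first occurred once in the Pgf window, 122 bases before the start, and once in the Vegfc window, 86 bases before the start. It was found in none of the other 8 windows, and 10.2% of the 32851 mouse windows of this length hold it. ACGTG was found 3 times in the Hif1a window at chr12:73907617-73907866 on the plus strand, where 2 of the matches are the overlapping strands of one palindrome. It was found once in the second Vegfa window at chr17:46025164-46025413 on the minus strand, 206 bases before that start, and 16.6% of all windows hold it. TGANTCA was in none of the 10 windows and in 6.75% of all windows. These matches describe letters in a window and were not tested as binding sites.

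Among the libraries, counts summed to between 16085692 and 19403480, so that 3 counts, taken as the floor, amounted to 0.160 to 0.180 CPM. CPM are counts relative to the total of their library, and are given here after scaling by TMM, which brings the bulk of genes to the same level in every library. By the quasi-likelihood test of edgeR, 899 tested genes were higher and 969 lower with DI at a Benjamini-Hochberg adjusted p below 0.05. Scaling by library size only gave 549 higher and 1930 lower, and moved the median log2 fold change of all genes to -0.10. Summed macrophage markers reached 28641 to 29442 CPM with DI and 22471 to 23341 CPM with vehicle, with 5 of 9 higher and 2 lower. Lyz2 made up most of the macrophage sum, at a mean of 23263 CPM with DI and 17947 CPM with vehicle. Summed osteoclast markers reached 714 to 730 CPM and 740 to 764 CPM, with 2 of the 8 tested markers higher and 5 lower. Atp6v0d2, among the 2 higher, made up most of this sum, at a mean of 509 CPM with DI and 422 CPM with vehicle. The osteoclast sum therefore does not show the 5 lower markers. Calcr, the calcitonin receptor gene of mature osteoclasts, had no count in any library. Summed stromal markers reached 64.7 to 70.8 CPM with DI and 65.7 to 71.5 CPM with vehicle, with 1 of the 7 tested markers higher and 0 lower. The higher one was Acta2, at a mean of 15.8 CPM with DI and 9.26 CPM with vehicle. Summed neutrophil markers reached 10.3 to 11.1 CPM with DI and 9.23 to 10.4 CPM with vehicle. For dendritic cell markers the sums were 14.3 to 16.8 CPM and 16.8 to 18.6 CPM. Dcstamp, which is also in the osteoclast list, made up nearly all of the dendritic sum, and the other 7 of its 8 markers were under 10 counts in every library. The part of these marker differences in the values below was not tested, and in bulk RNA fewer cells of a type and less RNA per cell cannot be told apart.

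With DI, Pgf was 4.79-fold and Vegfc 2.26-fold lower than with vehicle, whereas Nrp1 was higher and Nrp2 lower by smaller steps. Vegfa was modestly higher, Vegfb and Hif1a stood close to their vehicle levels, and Flt1 was barely expressed in either group. The log2 fold change was above 0 for 3 of the 8 genes and below 0 for 5, with a median of -0.21 beside 0.0012 over all tested genes. The libraries of the groups did not overlap for 7 of the 8 genes, beside 58.6% of all tested genes. In the test across all genes, 4 of the 8 were past the threshold, 1 higher and 3 lower, beside 14.8% of all tested genes, 7.14% being higher and 7.7% lower. Since this contrast chose the 8 genes, nothing is read from these counts.

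**Figure D1:**
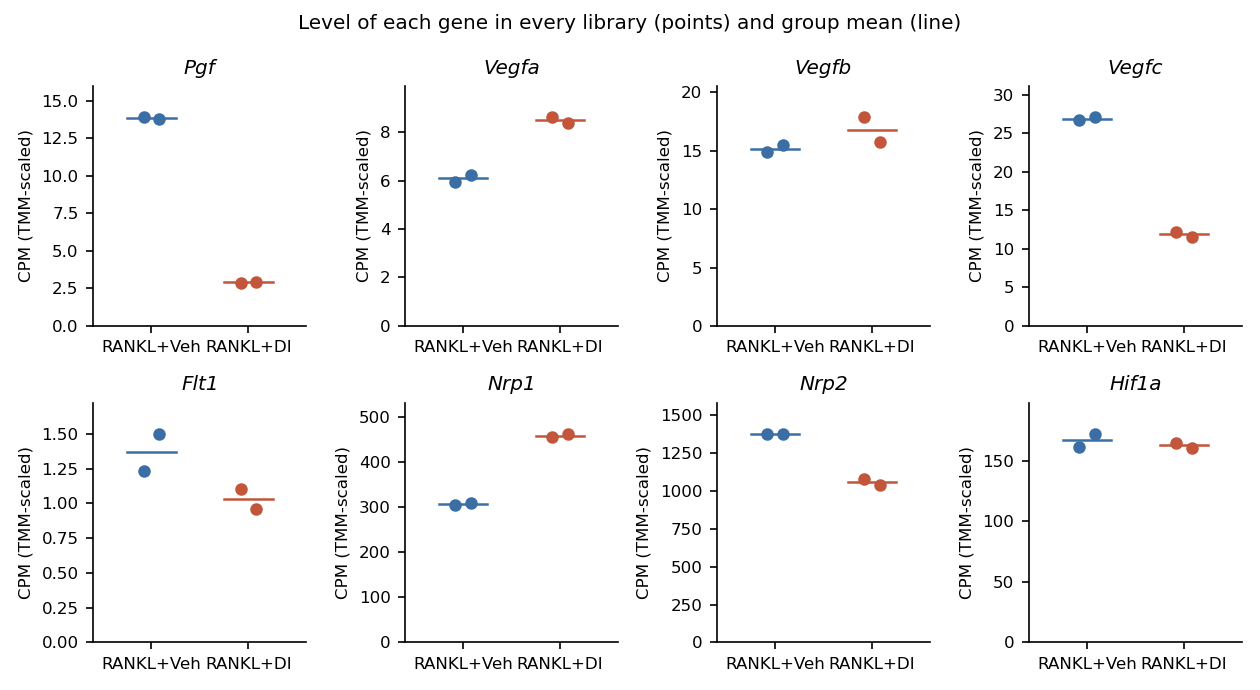
Level of each of the 8 genes in every library, in TMM-scaled CPM on axes that start at 0, with RANKL+Veh in blue, RANKL+DI in red, and a line at each group mean. The libraries of the groups stand apart for every gene except Hif1a, and the widest gap for its level is that of Pgf, at 13.8 and 13.9 CPM with vehicle and 2.85 and 2.93 CPM with DI.

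Pgf (ENSMUSG00000004791, GRCm38 chr12:85166639-85177296, minus strand) encodes PlGF, a ligand of the Flt1 product. It had 259 and 230 counts in the RANKL+Veh libraries and 49 and 55 counts in the RANKL+DI libraries. Both DI libraries lay far below both vehicle libraries, and replicates lay close together. The mean level was 13.8 ± 0.0675 CPM with vehicle and 2.89 ± 0.0555 CPM with DI (SD, n = 2), a ratio of 4.79 between vehicle and DI. The fitted log2 fold change was -2.26 with an SE of 0.129. Of the 12590 tested genes, 23 had a lower log2 fold change. No exon of another annotated gene overlaps Pgf.

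Vegfc (ENSMUSG00000031520, chr8:54077532-54186454, plus strand) encodes the ligand of lymphatic vessel growth. Its counts were 497 and 451 with vehicle and 210 and 216 with DI, again with no overlap between the groups. The mean level was 26.9 ± 0.280 CPM with vehicle and 11.9 ± 0.505 CPM with DI (SD, n = 2), which gave the ratio of 2.26 between vehicle and DI and a log2 fold change of -1.18 with an SE of 0.0902. A lower log2 fold change was found for 139 tested genes. Pgf and Vegfc were the ligand genes that were lower with DI.

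Vegfa (ENSMUSG00000023951, chr17:46016993-46032377, minus strand) encodes the main ligand of blood vessel growth. It had 111 and 104 counts with vehicle and 148 and 157 counts with DI. The direction was opposite to that of Pgf in each pair of libraries that can be formed. Its mean level was 6.10 ± 0.201 CPM with vehicle and 8.49 ± 0.176 CPM with DI (SD, n = 2), and the log2 fold change was 0.48 with an SE of 0.126. Vegfb (ENSMUSG00000024962, chr19:6982473-6987651, minus strand), whose product binds the same receptor as PlGF, had 278 and 258 counts with vehicle and 307 and 296 counts with DI. Its levels of 14.9 and 15.5 CPM with vehicle and 17.9 and 15.8 CPM with DI placed the lower DI library next to the higher vehicle library. The log2 fold change of Vegfb was 0.15 with an SE of 0.107.

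Flt1 (ENSMUSG00000029648, chr5:147561604-147726011, minus strand) encodes the receptor that PlGF and VEGF-B share with VEGF-A. It had 23 and 25 counts with vehicle and 19 and 18 counts with DI, the lowest of the 8 genes. The mean level was 1.37 ± 0.188 CPM with vehicle and 1.03 ± 0.104 CPM with DI (SD, n = 2). At this depth the log2 fold change of -0.40 had an SE of 0.308, and a difference was not detectable. The counts are per gene, so the membrane-bound and the soluble form of this receptor cannot be told apart.

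Nrp1 (ENSMUSG00000025810, chr8:128359073-128505462, plus strand) and Nrp2 (ENSMUSG00000025969, chr1:62703285-62818695, plus strand) encode the neuropilins and were the most abundant of the 8 genes. Nrp1 had 5683 and 5150 counts with vehicle and 7817 and 8685 counts with DI. Its mean level was 307 ± 2.90 CPM with vehicle and 459 ± 5.49 CPM with DI (SD, n = 2), and its log2 fold change was 0.58 with an SE of 0.0358. Nrp2 moved the other way. It had 25692 and 22986 counts with vehicle and 18607 and 19506 counts with DI, or 1379 ± 0.542 CPM and 1061 ± 30.9 CPM (SD, n = 2). Its log2 fold change was -0.38 with an SE of 0.0348. A microRNA gene, Mir1903, overlaps 0.818% of the Nrp1 exons.

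Hif1a (ENSMUSG00000021109, chr12:73901375-73947530, plus strand) had 3007 and 2873 counts with vehicle and 2830 and 3018 counts with DI. Its levels of 161 and 172 CPM with vehicle enclosed that of 165 CPM in one DI library, and it was the only one of the 8 genes whose groups overlapped. The log2 fold change was -0.04 with an SE of 0.0492. The opposite-strand gene Gm15283 overlaps 5.60% of its exons and had 3.75 counts per library on average, and Gm49321 on the same strand overlaps 2.51%. The factor encoded by Hif1a is regulated largely through the stability of its protein, which RNA counts do not measure.

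**Figure D2:**
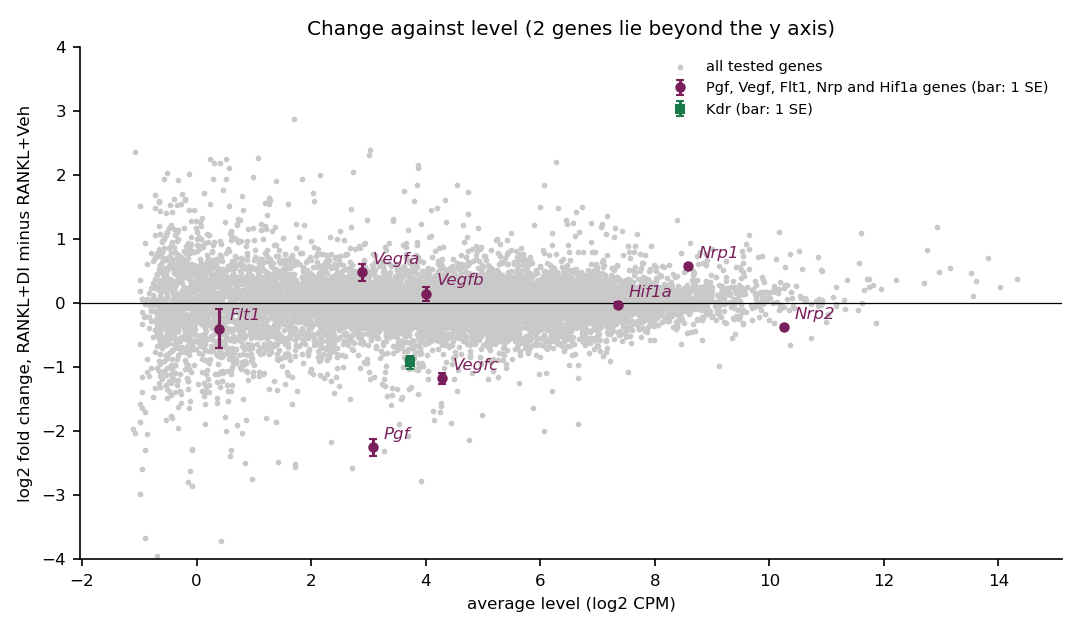
Log2 fold change (RANKL+DI minus RANKL+Veh) against average level in log2 CPM for all 12590 tested genes in grey, for the 8 genes in purple and for Kdr in green, with bars of 1 SE. Pgf at -2.26 and Vegfc at -1.18 lie below the bulk of genes of like level, Nrp1 at 0.58 lies above it, and Hif1a at -0.04 lies within it.

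Levels were compared between genes by the deposited FPKM values, which divide by gene length. They also divide by the library total without the TMM factors, which were 0.963 and 0.967 with DI and 1.037 and 1.036 with vehicle. Small differences between the groups in FPKM are therefore not read as changes. With vehicle the order was Nrp2 at 102.8, Nrp1 at 53.9, Hif1a at 24.9, Vegfc at 14.8, Pgf at 9.07, Vegfb at 7.31, Vegfa at 0.609 and Flt1 at 0.0984 FPKM, and no neighbours in this order overlapped between libraries. With DI the order was Nrp1 at 75.0, Nrp2 at 73.7, Hif1a at 22.6, Vegfb at 7.53, Vegfc at 6.09, Pgf at 1.76, Vegfa at 0.789 and Flt1 at 0.0692 FPKM. Here the neuropilins overlapped and no other neighbours did. Pgf thus stood above Vegfb with vehicle and below it with DI.

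Together the 4 ligand genes summed to 31.6 and 32.0 FPKM with vehicle and to 16.8 and 15.6 FPKM with DI. Pgf made up 28.8% and 28.2% of this sum with vehicle and 10.3% and 11.5% with DI. The share of Vegfc was 46.5% and 46.6% with vehicle and 37.3% and 38.0% with DI. Vegfb, whose own level differed little, made up 22.7% and 23.3% with vehicle and 47.6% and 45.5% with DI, so that it held the largest share of the ligand RNA under DI. The share of Vegfa was 1.88% and 1.94% with vehicle and 4.76% and 5.004% with DI. The ratio of Pgf to Vegfa, in FPKM, was 15.3 and 14.5 with vehicle and 2.17 and 2.30 with DI. For the co-receptors, the sum of Nrp1 and Nrp2 was 156 and 157 FPKM with vehicle and 149 and 148 FPKM with DI. This gap is narrower than that between the TMM factors of the groups, so no direction is read from it. The ratio of Nrp1 to Nrp2 was 0.520 and 0.527 with vehicle and 0.988 and 1.05 with DI.

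These shares depend on the length assigned to each gene. The counts and FPKM values imply a length of 10385 bases for Vegfa, where the exons annotated in GENCODE M21 span 4285 bases, and of 1582 bases for Pgf, where they span 2903. With the longest coding transcript as length, an alternative chosen after seeing the data, the ratio of Pgf to Vegfa was 3.87 and 3.67 with vehicle and 0.549 and 0.581 with DI, so that the order of these ligands turned under DI. Pgf then made up 21.6% and 21.01% of the ligand sum with vehicle and 6.01% and 6.76% with DI. Vegfb then held the largest share in every library, at 37.6% and 38.3% with vehicle and 61.2% and 59.1% with DI. The ratio of Nrp1 to Nrp2 was 0.413 and 0.419 with vehicle and 0.785 and 0.832 with DI. Which group was higher stayed the same for every share given here under both lengths. For the ratios it could not change, since the length of a gene is the same in every library.

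**Figure D3:**
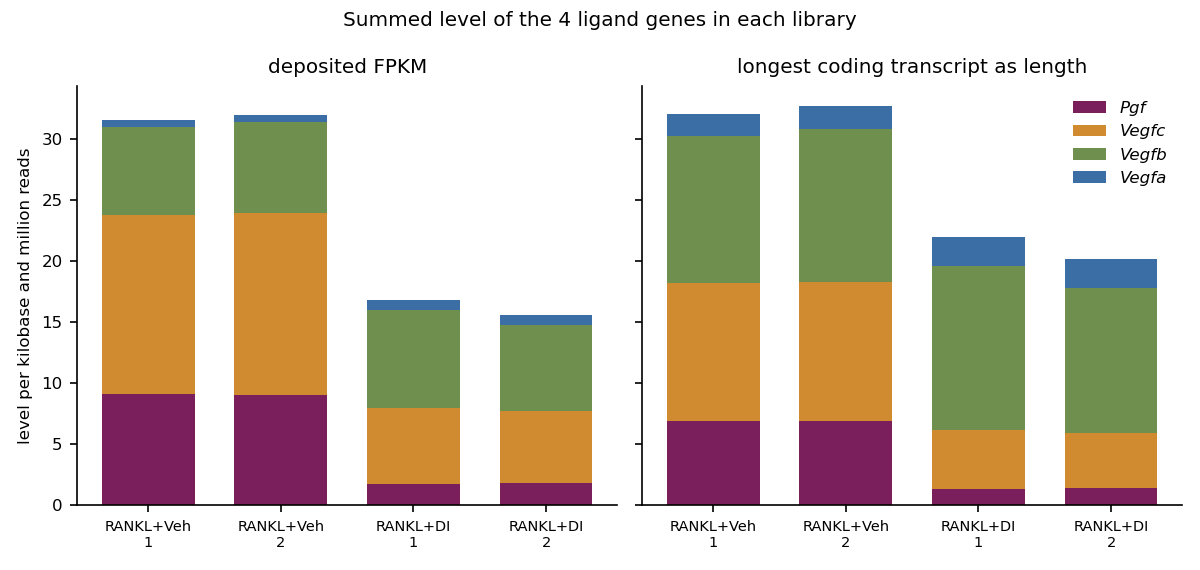
Summed level, scaled by gene length and library total, of Pgf, Vegfc, Vegfb and Vegfa in each library, by the deposited FPKM (left) and with the longest coding transcript as length (right), on axes that start at 0. The sum is between 31.6 and 32.0 FPKM with vehicle and between 15.6 and 16.8 FPKM with DI, and most of the difference lies in the Pgf and Vegfc segments.

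By a fixed rule, the 3 genes whose centred log2 CPM followed that of Pgf most closely over the 4 libraries were named from among 11007 genes of sufficient level. They were Zfp46, a zinc finger gene, at a root mean square distance of 0.059, Jdp2, which encodes a dimerization partner of Jun, at 0.085, and Gbp5, which encodes a guanylate-binding protein, at 0.101. Zfp46 had 311 and 253 counts with vehicle and 53 and 62 counts with DI. All 3 were lower in both DI libraries, and with 4 libraries in 2 groups any gene with a like difference has a like pattern.

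The other genes of the family were next examined, together with lists of genes around it that were written from general knowledge. Earlier results of these data were known when the lists were written, so the shares called are given as a description. Of the 10 other receptors and ligands of the VEGF and PDGF family in the table, 5 were tested, and 2 fell with DI while none rose, which is 40.0% called beside 14.8% of all tested genes. Kdr, which encodes the main receptor of VEGF-A, had 323 and 282 counts with vehicle and 159 and 165 counts with DI. Its level fell from 17.1 ± 0.289 CPM to 9.03 ± 0.328 CPM (SD), with a log2 fold change of -0.92, an SE of 0.103 and an adjusted p of 0.00404 by edgeR. Kdr is also a marker of endothelial cells, whose defining genes were scarce. Of 13 endothelial markers, 4 (Tek, Cldn5, Sox17 and Robo4) had no count in any library, Pecam1 had 1 to 5 counts and Cdh5 had 10 to 15, although Vwf had 916 to 1093. The summed endothelial markers reached 73.1 to 74.9 CPM with DI and 74.2 to 77.7 CPM with vehicle. Vwf made up most of this sum, at a mean of 59.3 CPM with DI and 56.1 CPM with vehicle. Of the 5 tested markers Esam was higher, at a mean of 3.94 CPM with DI and 1.04 CPM with vehicle, and Kdr lower. The endothelial sum therefore shows neither difference.

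Flt4, the receptor gene for VEGF-C, had 4 counts in each vehicle library and none in the DI libraries, at or near the floor, and was not tested. Figf, which encodes VEGF-D, had 2 and 3 counts with vehicle and 6 and 5 counts with DI and was not tested either. Pdgfa, which encodes a growth factor for mesenchymal cells, fell by 0.59 on the log2 scale (SE 0.121, edgeR adjusted p = 0.0267), but the call was lost without either of the RANKL+Veh libraries. An opposite-strand gene overlaps 26.1% of the Pdgfa exons, and no source says that strand was used in counting. Pdgfb had a log2 fold change of -0.09 with an SE of 0.0432 and an edgeR adjusted p of 0.239.

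The next list, named neuropilin partner genes, holds semaphorins, plexins and related genes, not all of which are known to act with neuropilins. Of its genes 18 of 27 were tested, and 3 rose and 5 fell, so that 44.4% were called beside 14.8% of all tested genes. The median log2 fold change of the tested genes was 0.05, opposite in sign to the balance of the calls. Scaling by library size only gave 2 higher and 8 lower. Plxna4, a plexin that signals for secreted semaphorins with neuropilins, fell by 1.56 on the log2 scale (SE 0.177, edgeR adjusted p = 0.0042), from 507 and 497 counts to 197 and 148. Plxna1, a plexin of the same class, rose by 0.33 (SE 0.0343, edgeR adjusted p = 0.00316), and an opposite-strand gene overlaps 10.7% of its exons. Sema4a, a membrane-bound semaphorin, rose by 0.61 (SE 0.0685, edgeR adjusted p = 0.00407). Sema3c, a secreted semaphorin that binds neuropilins, rose by 0.62 (SE 0.148, edgeR adjusted p = 0.0435), and this call was lost without RANKL+DI library 2, without RANKL+Veh library 1 and with scaling by library size only. Neto2, which resembles neuropilins in its extracellular part, fell by 0.75 (SE 0.164, edgeR adjusted p = 0.0329), a call that was lost without any one of the 4 libraries, by DESeq2 and with the replicate number as a block. Plxnd1 had a log2 fold change of -0.08 and an edgeR adjusted p of 0.227. Without RANKL+DI library 2 or RANKL+Veh library 1, 5 of the 18 genes were called.

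Of the genes that carry the signal of VEGF receptors inside the cell, 51 of 57 were tested, and 7 rose and 4 fell, with a median log2 fold change of 0.15. The share called was 21.6% beside 14.8% of all tested genes. Scaling by library size only gave 5 higher and 7 lower. Prkcb, a protein kinase C gene, rose by 0.79 (SE 0.0907, edgeR adjusted p = 0.00431), from 73.6 to 128 CPM. The adaptor gene Nck2 rose by 0.75 (SE 0.0895, edgeR adjusted p = 0.00491). Src, a tyrosine kinase gene also needed for osteoclast function, fell by 0.55 (SE 0.0771, edgeR adjusted p = 0.00813).

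Around Hif1a, 17 of 20 regulators and partners of hypoxia-inducible factors were tested, and by edgeR's adjusted p none passed, beside 14.8% of all tested genes, with a median log2 fold change of 0.11. An unadjusted p under 0.05 was found for 3 of them, and DESeq2 called 0. Epas1, which encodes HIF-2α, had 163 and 115 counts with vehicle and 206 and 198 counts with DI, a log2 fold change of 0.52 with an SE of 0.157 and an edgeR adjusted p of 0.0814. Without the filter on low counts, this adjusted p was 0.0383. Arnt, the common partner subunit, had a log2 fold change of 0.02 (edgeR adjusted p = 0.935). For the genes that mark the factor for degradation, the log2 fold change was 0.15 for Egln1 (edgeR adjusted p = 0.256), 0.55 for Egln3 (0.272) and 0.18 for Vhl (0.201).

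Of the known targets of hypoxia-inducible factors, 44 of 47 were tested. In this list 12 rose and 1 fell with DI, 29.5% of those tested, beside 7.14% higher and 7.7% lower over all tested genes. The median log2 fold change was 0.17, and scaling by library size only gave 10 higher and 3 lower. Gbe1, the glycogen branching enzyme gene, rose by 1.25 (SE 0.0690, edgeR adjusted p = 5.7e-04), from 56.5 ± 1.94 CPM to 134 ± 9.92 CPM (SD). P4ha2, a collagen prolyl hydroxylase gene, rose by 0.87 (SE 0.104, edgeR adjusted p = 0.00504). Pfkfb4, a regulator of glycolysis, rose by 0.66 (SE 0.0704, edgeR adjusted p = 0.00356), and the glucose transporter gene Slc2a1 rose by 0.62 (SE 0.0490, edgeR adjusted p = 0.00156). Bnip3, a mitophagy receptor gene, rose by 0.47 (SE 0.0658, edgeR adjusted p = 0.00778), and an opposite-strand gene overlaps 22.3% of its exons. The gene that fell was Tfrc, the transferrin receptor gene, at -0.42 (SE 0.0553, edgeR adjusted p = 0.00659), named here after its value was seen. Several of these genes have other regulators, and their levels measure no activity of the factor.

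Of the other genes of blood vessel growth and its inhibition, 45 of 59 were tested, and 14 rose and 3 fell, with a median log2 fold change of 0.19. Of those tested 37.8% were called, beside 14.8% of all tested genes. Scaling by library size only gave 9 higher and 5 lower. Cxcl10, an interferon-induced chemokine gene known to restrain vessel growth, fell by 2.08 (SE 0.140, edgeR adjusted p = 9.2e-04). Mmp9, a matrix metalloproteinase gene that is also an osteoclast marker, fell by 1.64 (SE 0.0862, edgeR adjusted p = 5.4e-04), and Mmp14, of the same family, fell by 0.88 (SE 0.0885, edgeR adjusted p = 0.00298). Acvrl1, a receptor gene of the TGF-β family, rose by 0.81 (SE 0.0854, edgeR adjusted p = 0.0033). Thbs1, which encodes an inhibitor of vessel growth, rose by 0.39 (SE 0.0898, edgeR adjusted p = 0.0395), but this call was lost without RANKL+DI library 1, without either RANKL+Veh library, by DESeq2, with scaling by library size only and with the replicate number as a block. Angpt2, a ligand of the Tie receptors, had overlapping groups and a log2 fold change of 0.17 (edgeR adjusted p = 0.496).

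**Figure D4:**
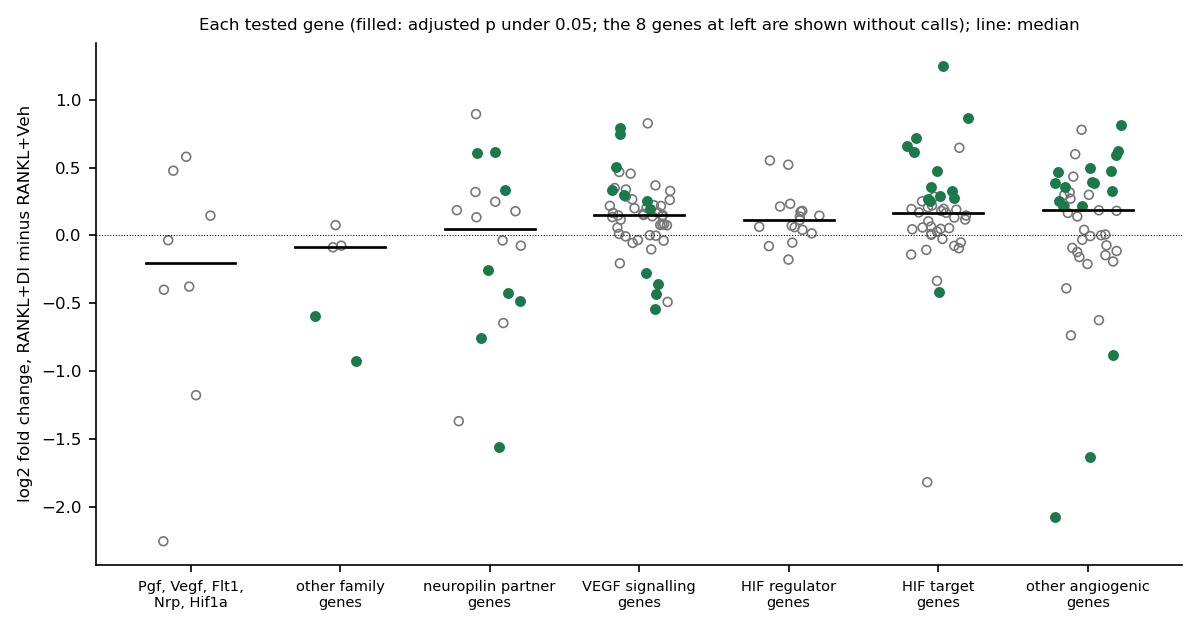
Log2 fold change (RANKL+DI minus RANKL+Veh) of each tested gene, for the 8 genes at left and the 6 lists around them, with filled points for genes past an adjusted p of 0.05 by edgeR and a line at each median. The 8 genes, which the contrast chose, are drawn without calls, the HIF regulators hold no filled point, and the HIF targets hold 12 filled points above 0 and 1 below.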

How the data were processed

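The 4 libraries were grouped by their labels, with 2 in the RANKL+DI group and 2 in the RANKL+Veh group. Messenger RNA libraries were made with the VAHTS mRNA-seq v2 kit. For each gene the authors deposited read counts without normalization, and FPKM values, which follow from these counts, the library totals and a fixed length per gene. A second deposited table repeats these values with pathway annotation and was not used. The submitters' processing notes name GRCm38 (mm10), while the aligner, counter and annotation are not given in the sources used here. All value columns matched a sample.

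Counts were analysed as deposited in R 4.3.3 with edgeR 4.0.16: the default filter on low counts, TMM factors (0.963 to 1.04), a quasi-likelihood fit on condition alone, and p-values adjusted by Benjamini-Hochberg over 12590 genes, with a threshold of 0.05. Each standard error is the log2 fold change divided by the root of its F statistic. Depth was between 16085692 and 19403480 counts, and floors cover counting error only. Counts of replicates differed by more than sampling noise (chi-square per degree of freedom 7.97 with DI and 8.14 with vehicle). This value pools all tested genes. It does not tell repeated sequencing, separate preparations of the same culture and separate cultures apart. Steps were tested on simulated data.

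The 8 genes, the gene lists, the marker lists and the tests were chosen with earlier results of these data known. Besides the 8 genes, up to 4 genes of each list were named by the largest absolute log2 fold change among those past the threshold whose groups did not overlap and whose average log2 CPM was over 0, together with 16 genes named whatever their values and the 3 genes most like Pgf (average log2 CPM over 1, pseudocount 0.5 CPM). Some genes under this rule are not reported here. Alternatives were DESeq2 1.42.0 size factors and its Wald test, upper quartile factors, library size only, no filter, at least 10 counts in every library, the replicate block and leaving out each library. A length from the longest coding transcript was added after seeing the data. Promoter windows came from RefSeq (GRCm38.p6). Exon overlaps were taken from GENCODE M21, and copies were sought with BLAST+ 2.17.0 at 95% identity. The coordinates of 4 of the 8 genes are the same in GENCODE M21 and in the deposited table.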

Additional observations from a re-analysis of the deposited data

How the results depend on the processing

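Over the 11 alternatives, the log2 fold change ranged from -2.36 to -2.24 for Pgf, from -1.28 to -1.13 for Vegfc, from 0.48 to 0.59 for Nrp1, from -0.48 to -0.35 for Nrp2, from 0.37 to 0.51 for Vegfa, from 0.04 to 0.24 for Vegfb and from -0.54 to -0.26 for Flt1. That of Hif1a ranged from -0.14 to 0.01 and changed sign in 1 alternative. Of the 8 genes, 4 to 5 were past the threshold in these alternatives, from which nothing is read, since this contrast chose them. Without one library in turn, where the lone library of a group is taken to vary like those of the other group, 1087 to 1394 genes were called beside 1868 with all 4, the low values being 1120 without RANKL+Veh replicate 1 and 1087 without RANKL+Veh replicate 2. Leaving out a library left 5 to 7 neuropilin partner genes beside 8, and 1 to 2 other family genes beside 2. Of the HIF regulators, 1 was called with library size only (Cited2, lower) and 1 without the filter (Epas1, higher). With the longest coding transcript as length, 4 of the 8 genes kept their rank by level with DI and 5 with vehicle. Same-numbered libraries did not deviate together (correlation -0.03). This cannot exclude a shared culture or batch whose effect is small beside the spread between libraries. With the replicate block 1389 genes were called, 685 higher and 704 lower, and 4 of the 8 genes. The block gave 12 HIF target genes, 9 VEGF signalling genes, 7 neuropilin partner genes and 16 other angiogenic genes, and the calls of Neto2 and Thbs1 were lost with it. With 2 libraries in a group the depth limits Flt1 most, at 18 to 25 counts per library.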

Other observations

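Genes near Pgf on chromosome 12 were listed after the values of Pgf and Jdp2 had been seen, and are given as values. Distances run between the lower coordinates of genes, whatever their strand. Within 500 kb of Pgf, 17 genes were tested, Pgf included. Fos, which encodes a subunit of AP-1, lies 307 kb from Pgf and had a log2 fold change of -0.60 with an SE of 0.0430 (edgeR adjusted p = 0.00115). Jdp2, which encodes a repressor that dimerizes with Jun, lies 432 kb away and had a log2 fold change of -1.998 with an SE of 0.0882 (edgeR adjusted p = 3.2e-04). Jdp2 had 2103 and 1667 counts with vehicle and 436 and 523 counts with DI, and an opposite-strand gene overlaps 7.68% of its exons. Ltbp2, which encodes a protein that associates with elastic fibres, had a log2 fold change of -0.80 with an SE of 0.204 (edgeR adjusted p = 0.0529). It lies at lower coordinates than Pgf. The other tested genes on that side were Npc2, Isca2, Arel1, Fcf1, Ylpm1, Prox2 and Dlst. Their log2 fold changes ran from -0.11 to 0.12, with edgeR adjusted p from 0.235 to 0.970. The 6 tested genes between Pgf and Fos (Eif2b2, Mlh3, Acyp1, Zc2hc1c, Nek9 and Tmed10) had log2 fold changes from -0.09 to 0.60 and edgeR adjusted p from 0.147 to 0.590.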
